A study of Mus musculus with 9 samples.

Results

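Hoxa11 binding was mapped in whole limb buds of wild-type ICR mouse embryos at E11.5 in replicates 1 and 2, and the peak lists of both are compared here. Members were all peaks of the 2 lists, 2953 in replicate 1 and 1647 in replicate 2, which make 4600 of the 243649 peaks in the 5 lists of the series. A peak was called reproducible when it shared at least 1 bp with a peak of the other replicate. Peaks of replicate 1 only and of replicate 2 only were the remainder. Both libraries were made by chromatin immunoprecipitation and sequencing (ChIP-seq) from formaldehyde-fixed tissue sheared to fragments of 200 to 1000 bp, with 8 ug of a home-made anti-Hoxa11 antibody each. By the titles, replicate 1 has its input DNA in common with a Hoxa13 library of E11.5 limb buds, whereas replicate 2 has an input library of its own. Hoxa13 lists of the E11.0 autopod, the E11.5 limb bud and the E12.5 limb bud, 1 library each from wild-type ICR embryos with a home-made anti-Hoxa13 antibody, were used only to describe the Hoxa11 peaks further. The E11.0 library was made from pooled autopods and the E12.5 library by an earlier protocol of another publication. Per the labels' protocols an immunoprecipitation at E11.5 took the limb buds of a litter, and the labels do not say whether the replicates came from separate litters. A whole limb bud mixes cell types, and peak lists hold no expression values against which the tissue label could be checked.

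Hoxa11 is a homeodomain transcription factor of the HoxA cluster. In the mouse limb it is known for its role in the zeugopod, the forearm and lower leg, while Hoxa13 is needed for the autopod, the hand and foot. Proteins of this family bind short AT-rich sequences, and their sites often lie far from any gene, so a list of sites seen in separate libraries is the usual starting point for naming target loci.

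The first question was how many sites the replicates had in common. Of the replicate 1 peaks, 1056 (35.8%, 95% interval 34.0 to 37.5) met a replicate 2 peak, and of the replicate 2 peaks 1064 (64.6%, 62.2 to 66.9) met a replicate 1 peak. Thus 1897 peaks were found in replicate 1 only and 583 in replicate 2 only. Intervals are exact Clopper-Pearson intervals and cover counting error over peaks, not the spread between embryos. With 1 library per list, no test over samples could be made, and the read depth of the libraries is unknown. By covered length the reproducible peaks took more than by number, 49.0% of the 1059 kb of replicate 1 and 69.3% of the 661 kb of replicate 2.

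Where the lists met, the centres of the peaks lay close together, while their edges often differed. There were 1097 matched pairs, 966 of them one-to-one, and they merged to 1023 reproducible sites with a median width of 438 bp. The midpoints of a pair lay a median of 49.5 bp apart, with quartiles of 21.5 and 114.5 bp. The replicate 2 summit, the position of highest signal as the authors deposited it, fell inside the replicate 1 peak in 1001 pairs (91.2%, 89.4 to 92.9). The shared part was a median of 66.4% of the combined interval (quartiles 49.4% and 80.1%), and 4 pairs shared under 20 bp. In 697 pairs replicate 1 was the wider, in 396 replicate 2 was, and the medians in pairs were 375 bp in replicate 1 and 325 bp in replicate 2. Splitting of a broad site into several peaks was rare: 37 replicate 1 peaks met more than 1 replicate 2 peak, and 29 replicate 2 peaks met more than 1 replicate 1 peak, up to 5 of them.

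Single-replicate peaks were mostly not near misses. The nearest replicate 2 peak lay within 1 kb for 91 of the 1897 peaks of replicate 1 only (4.80%, 3.88 to 5.86), and the median distance was 350 kb. For the 583 peaks of replicate 2 only, a replicate 1 peak lay within 1 kb for 65 (11.1%, 8.71 to 14.0), with a median distance of 149 kb. A longer list brings its peaks nearer to any position, so the 2 distances are not comparable with each other. Extending every peak by 500 bp on each side raised the shares met to 38.8% of replicate 1 and 68.5% of replicate 2.

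Reproducible peaks were wider than peaks of a single replicate. In replicate 1 the median width was 368 bp (quartiles 279 and 533) over reproducible peaks and 256 bp (221 and 319) over the others. In replicate 2 it was 319 bp (247 and 444) over reproducible peaks and 247 bp (215 and 312) over the others. The shortest interval of each list, 199 bp in replicate 1 and 200 bp in replicate 2, was taken by 16 reproducible and 109 single peaks of replicate 1, and by 41 reproducible and 48 single peaks of replicate 2.

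The share met climbed with width in both lists, and more steeply in replicate 1. With each list cut into 5 equal classes of width, 14.9% (12.1 to 18.0) of replicate 1 peaks and 44.2% (38.8 to 49.8) of replicate 2 peaks were met in the narrowest class. In the widest class the shares were 75.1% (71.4 to 78.6) in replicate 1 and 83.6% (79.2 to 87.5) in replicate 2. The intervals of the 2 lists did not overlap in either class. About as many peaks were met in each list, so the longer list, replicate 1, has lower shares partly through its length. With its widest 1647 peaks, the length of replicate 2, 50.3% of replicate 1 and 51.5% of replicate 2 were met. By width in bp, the shares of the full lists came together only among the widest peaks of all. At 600 bp or more, 201 of 228 replicate 1 peaks (88.2%, 83.2 to 92.05) and 135 of 157 replicate 2 peaks (86.0%, 79.6 to 91.0) were met, and under 250 bp 172 of 1042 replicate 1 peaks (16.5%) and 282 of 580 replicate 2 peaks (48.6%) were. A wider interval is also easier to meet by 1 bp. With midpoints required within 200 bp, the widest class still gave 62.9% in replicate 1 and 66.7% in replicate 2.

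**Figure D1:**
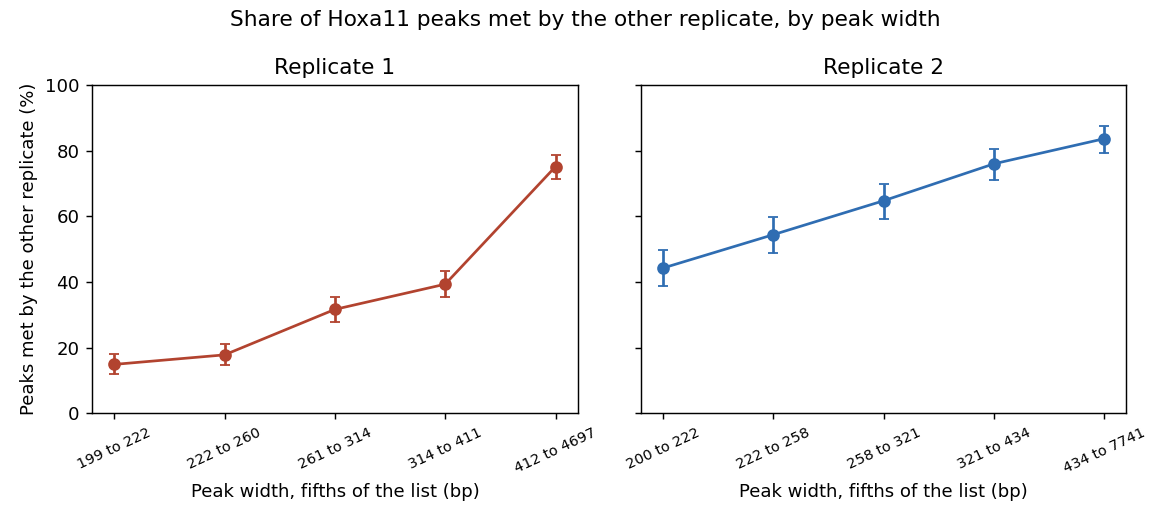
The share of peaks met by the other replicate (percent, y axis) is plotted for 5 equal classes of peak width in bp (x axis), replicate 1 on the left and replicate 2 on the right, with exact 95% intervals over peaks. The share is highest in the widest class of both lists, at 75.1% in replicate 1 and 83.6% in replicate 2.

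The list of replicate 2 also carries the authors' peak values, the fold enrichment over the background of the peak caller and the −log10 q-value, which are used here only within that list. Fold enrichment had a median of 4.21 (quartiles 3.44 and 5.19) over reproducible peaks and 3.54 (3.05 and 3.97) over the peaks of replicate 2 only. The −log10 q had a median of 8.75 (5.60 and 14.6) over reproducible peaks and 5.27 (3.94 and 7.45) over the others. In the top class the 2 measures differed. With the list cut into 10 equal classes, the highest by fold enrichment had 163 of 165 peaks met by replicate 1 (98.8%, 95.7 to 99.9), and the highest by −log10 q had 146 of 165 (88.5%, 82.6 to 92.9). The 2 classes come from the same list and can hold the same peaks. Their intervals describe each share and do not test the difference. These intervals did not overlap, nor did those on chromosomes 1 to 19, at 97.2% (93.0 to 99.2) and 87.5% (81.0 to 92.4). In the other alternatives they overlapped. With all peaks set to 200 bp the top class was met at 81.2% (74.4 to 86.9) by fold enrichment and 76.4% (69.1 to 82.6) by −log10 q, and without runs of 9 or more peaks at 96.6% (92.1 to 98.9) and 92.4% (86.8 to 96.2). Among peaks of at least 2.5-fold, the top class was met at 99.4% (96.4 to 99.98) and 97.4% (93.5 to 99.3). In the whole list the lowest class gave 37.0% by fold enrichment and 39.4% by −log10 q.

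**Figure D2:**
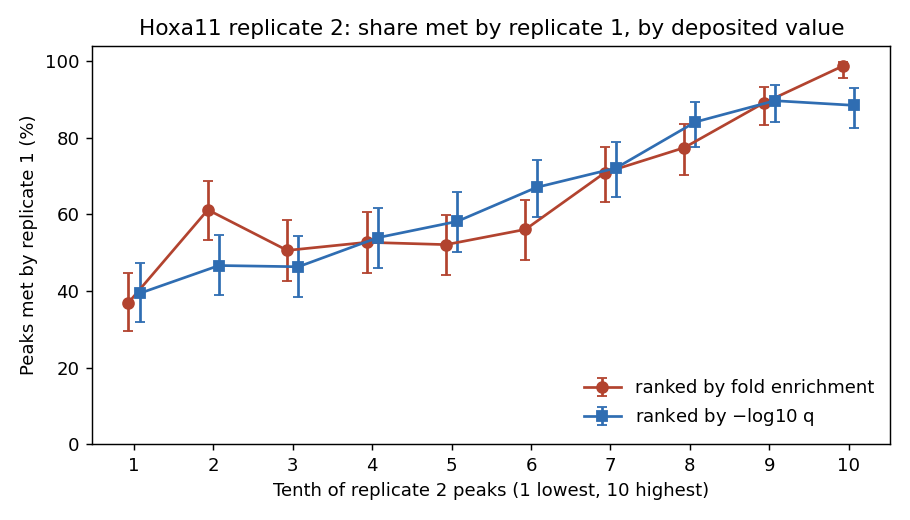
The share of replicate 2 peaks met by replicate 1 (percent, y axis) is plotted for 10 equal classes of the list ranked by the authors' fold enrichment (circles) or −log10 q (squares), from lowest to highest (x axis), with exact 95% intervals over peaks. The top class reaches 98.8% by fold enrichment but 88.5% by −log10 q.

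The difference lay in peaks that combined a strong q-value with a low fold enrichment. Of the 19 unmet peaks in the top class by −log10 q, 15 had a fold enrichment below 2.5, a bound chosen after the values were seen. In the whole list 106 peaks lay below 2.5, and 19 of them (17.9%, 11.2 to 26.6) were met by replicate 1, against 1045 of 1541 (67.8%, 65.4 to 70.1) of the rest. Among peaks with −log10 q of at least 10, replicate 1 met 1 of 32 below 2.5-fold and 458 of 496 (92.3%, 89.6 to 94.5) at or above it. Of the 106 low-fold peaks, 66 met Hoxa13 at E11.0 (62.3%, 52.3 to 71.5), 26 at E11.5 (24.5%, 16.7 to 33.8) and 57 at E12.5 (53.8%, 43.8 to 63.5). Of the remaining 1541 peaks, 28.4% (26.1 to 30.7) met the E11.0 list, 73.98% (71.7 to 76.2) the E11.5 list and 55.9% (53.4 to 58.4) the E12.5 list, so that the low-fold peaks stood above them at E11.0, below them at E11.5 and level with them within the intervals at E12.5. The low-fold peaks were thus less often met in the 2 lists whose libraries have an input in common, Hoxa11 replicate 1 and Hoxa13 at E11.5. The Hoxa13 libraries also differed from each other in stage, in tissue and, at E12.5, in protocol. Input and other differences between libraries cannot be told apart in this design. The 106 peaks include 9 adjoining ones on chromosome 9, described next, and all 9 are among the 32 with −log10 q of at least 10. The intervals count these adjoining peaks as separate.

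The clearest such group lay on chromosome 9. Between 2999983 and 3038356 (mm9, 1-based, as for all positions here), replicate 2 held 9 peaks that covered 36.8 of 38.4 kb, each 1028 to 7741 bp wide. Their fold enrichment was 1.87 to 1.97 and their −log10 q 24.2 to 26.8. Replicate 1 had 0 peaks there. All 9 met Hoxa13 at both E11.0 and E12.5, and 0 met it at E11.5. They are called peaks of replicate 2 only and cover this stretch almost without a break. No list of repeated sequence was used here.

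The 10 highest-scoring reproducible peaks of replicate 2 were matched closely. In 8 of the 10 the replicate 1 peak was the wider. The first, on chromosome 9, ran from 29126249 to 29126784 in replicate 2 (16.6-fold, −log10 q of 163) and began at 29126172 in replicate 1. Those on chromosome 12 (9265162 to 9265927, 17.6-fold), chromosome 10 (98633124 to 98633983, 15.8-fold) and chromosome 3 (6381637 to 6382638, 17.7-fold) each lay within a replicate 1 peak, of 897, 1078 and 1329 bp. The fourth in rank, on Un_random, was a long interval of 4697 bp in replicate 1 and 4674 bp in replicate 2, with only 6.59-fold enrichment. The others were on chromosome 15 (102844833 to 102845396, 11.3-fold), chromosome 2 (171458967 to 171459672, 12.3-fold, and 74976241 to 74976895, 11.6-fold), chromosome 3 (80850628 to 80851707, 15.3-fold) and chromosome 14 (23834737 to 23835192, 9.71-fold). Of these 10 peaks, 6 met the E11.0 list of Hoxa13, 9 met the E11.5 list and 8 met that of E12.5. The exception at every stage was the chromosome 10 site, which was broad in both Hoxa11 lists. Its strength in replicate 1 is unknown, as that list holds no peak values.

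The 10 highest-scoring peaks that replicate 1 lacked were of another kind. In 8 of them the fold enrichment was 1.89 to 1.97, 6 of these belonging to the chromosome 9 group. The other low-fold peaks were on chromosome 2 (98506388 to 98507517) and chromosome 18 (90771542 to 90772031). All 8 met Hoxa13 at E11.0, 7 met it at E12.5 and 0 at E11.5. The first 2 in rank differed from these. They lay close together on chromosome 8, from 126417083 to 126417452 (5.73-fold, −log10 q of 36.3) and from 126416484 to 126416716 (6.43-fold, 31.1). A further peak of replicate 2 only stood just before them, from 126415943 to 126416158 (4.04-fold, 12.6). The nearest replicate 1 peak was 89.5 kb from the first, and no Hoxa13 list had a peak at any of the 3.

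Strong peaks of replicate 2 without a partner were few. At a fold enrichment of 6 or more, a bound set after the values were seen, 168 of 172 peaks (97.7%, 94.2 to 99.4) were met by replicate 1. Besides the one on chromosome 8, the unmet peaks were on chromosome 9 (66883818 to 66884057, 6.14-fold), chromosome 2 (75188972 to 75189424, 6.06-fold) and chromosome 7 (99413428 to 99413652, 6.03-fold). None of these 4 met Hoxa13 at any stage, whereas 155 of the 172 met it at E11.5. The 4 peaks were 225 to 453 bp wide, against a median of 531.5 bp over the 172, and a narrower peak is harder to meet.

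Replicate 1 holds no peak values, so its peaks were ranked by width. The 5 widest reproducible ones lay on unplaced sequence or on chromosome X: Un_random from 3643433 to 3648129, 4_random from 94178 to 98197, and chromosome X from 120609899 to 120613896, 120380643 to 120384627 and 120831438 to 120835268. All of them met Hoxa13 at every stage, against 27.1% of all reproducible sites. They were 3831 to 4697 bp wide, and a wider peak is easier to meet. The 5 widest peaks of replicate 1 only were shorter, from 886 to 1423 bp. They lay on chromosome 5 (115121375 to 115122797), chromosome Y (2007826 to 2009020 and 2006866 to 2007751), chromosome X (91413671 to 91414628) and chromosome 2 (172924215 to 172925151). Those on chromosomes 5 and 2 met no Hoxa13 peak. Both chromosome Y peaks met the Hoxa13 lists of E12.5 and E11.5, and that on chromosome X met it at E11.5 only.

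By chromosome, the same autosomes gave the highest and the lowest share in both lists. Among the 19 autosomes, chromosome 11 had the highest share met in both lists, 41.9% (33.2 to 50.9) of 129 replicate 1 peaks and 79.4% (67.9 to 88.3) of 68 replicate 2 peaks. Chromosome 17 had the lowest in both, 22.4% (13.6 to 33.4) of 76 replicate 1 peaks and 43.6% (27.8 to 60.4) of 39 replicate 2 peaks. A reproducible site counts on both sides, so this likeness is partly built in. The intervals of these 2 chromosomes overlapped in replicate 1 and did not in replicate 2. Replicate 1 held more peaks than replicate 2 on every autosome, from 1.39 times as many on chromosome 12 to 2.51 times on chromosome 7.

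**Figure D3:**
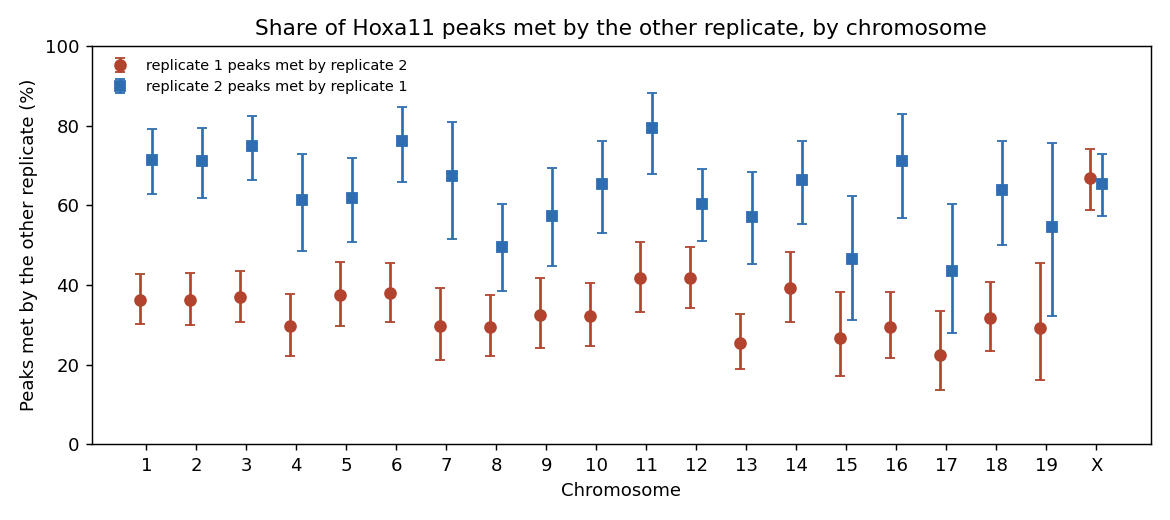
The share of Hoxa11 peaks met by the other replicate (percent, y axis) is plotted by chromosome (x axis), circles for replicate 1 and squares for replicate 2, with exact 95% intervals over peaks. On the autosomes the replicate 2 shares stand above those of replicate 1, and on chromosome X they stand close together, at 66.9% in replicate 1 and 65.4% in replicate 2.

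Chromosome X did not follow the autosomes. It held 157 peaks of replicate 1 and 153 of replicate 2, a ratio of 1.03, against 1.89 over the autosomes together. In replicate 1, 105 of the X peaks (66.9%, 58.9 to 74.2) were met, against 920 of 2712 autosomal peaks (33.9%, 32.1 to 35.7), a difference of 33.0 percentage points (Newcombe interval 25.1 to 40.1). In replicate 2 the shares were 65.4% on X and 64.8% on the autosomes, a difference of 0.572 points (−7.63 to 8.08). Nearly all of these X peaks lay in windows of 1 Mb that were dense in peaks of some list. The Hoxa11 lists helped to define these windows, so leaving them out removes grouped Hoxa11 peaks partly by construction. By the Hoxa13 lists alone 26 windows were dense, against 136 by all 5 lists. Outside the 136 dense windows, X held 18 peaks of replicate 1, 5 of them met, and 15 of replicate 2, 5 of them met. There the difference in replicate 1 was −3.25 points (−18.7 to 19.9), and in replicate 2 −28.8 (−47.2 to −3.68). Inside the dense windows, 100 of 139 X peaks of replicate 1 (71.9%) and 310 of 746 autosomal peaks (41.6%) were met. The difference in replicate 1 was thus 30.4 points inside them (21.6 to 38.0), and in replicate 2 it was −1.64 (−10.7 to 6.71).

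Peaks of a list were often grouped. A neighbour of the same list within 10 kb was found for 325 of the 1056 reproducible replicate 1 peaks (30.8%, 28.0 to 33.7) and for 340 of the 1897 peaks of replicate 1 only (17.9%, 16.2 to 19.7). In replicate 2 it was found for 280 of 1064 reproducible peaks (26.3%, 23.7 to 29.1) and 142 of 583 peaks of replicate 2 only (24.4%, 20.9 to 28.1). Outside dense windows and unplaced sequence the shares were 9.90% of reproducible and 7.79% of single peaks in replicate 1, with overlapping intervals. In replicate 2 they were 6.16% (4.39 to 8.36) of reproducible peaks and 12.3% (9.16 to 16.0) of peaks of replicate 2 only. Hoxa11 counts helped to define the dense windows, so lower shares outside them are partly built in.

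Chaining all peaks of both lists at gaps of at most 10 kb gave 2933 runs, of which 1923 held a single peak. A reproducible peak was present in 875 runs. Replicate 1 alone made up 1592 runs and replicate 2 alone 427, and 39 runs held both replicates with no peak in common. The largest runs were few and placed on few chromosomes. Of the 26 runs with 9 peaks or more, a bound set after they were seen, 15 lay on chromosome X, 6 on autosomes, 4 on unplaced sequence and 1 on chromosome Y. Together they held 246 peaks of replicate 1, 145 of them met, and 200 of replicate 2, 147 of them met. Without them 33.7% of replicate 1 and 63.4% of replicate 2 were met.

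The 10 runs richest in reproducible sites held 77 of the 1023, and 7 of these runs were on chromosome X. The richest, on X from 92119312 to 92174067, had 35 peaks of replicate 1 and 31 of replicate 2 within 54.8 kb, and 19 reproducible sites. Its fold enrichment in replicate 2 was low, 2.05 to 3.44, and of its 66 peaks 58 met the E11.0 list of Hoxa13, 15 that of E11.5 and 20 that of E12.5. The run on 4_random from 94139 to 141138 had 11 reproducible sites, with fold enrichment up to 11.4, and 36 of its 37 peaks met Hoxa13 at E11.5. Another, on X from 120159199 to 120198460, had 9 reproducible sites, 8 peaks of replicate 1 only and 10 of replicate 2 only.

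The other X runs among the 10 began at 121040429, 120821592, 121854199, 122169083 and 121477926, each with 5 or 6 reproducible sites in 9.33 to 16.3 kb. They belonged to a series of 14 long runs between 120159199 and 122620740. Successive runs in it began 119 to 437 kb apart, with a median of 183 kb. Over the 14 runs 78.2% of replicate 1 peaks and 74.7% of replicate 2 peaks were met, but the runs varied. In the runs from 122169083 and 121477926 every peak of both replicates was met, while in the first, from 120159199, 9 of 17 peaks of replicate 1 and 9 of 19 of replicate 2 were. By run the share met was 50% to 100% in replicate 1 and 47.4% to 100% in replicate 2. The 3 windows of 1 Mb from 120000001 on held 62 of the 86 reproducible sites of chromosome X, and the window from 92000001 held 19 more.

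A regular spacing marked the remaining named runs. On chromosome 6 from 114449915 to 114586701, 2 neighbouring runs, the first of them added after its values were seen, held 34 sites, 7 of them in both replicates, 25 in replicate 1 only and 2 in replicate 2 only. Of the 33 gaps between midpoints of neighbouring sites, 22 were under 3 kb, and these ranged from 2325 to 2564 bp with a median of 2414 bp. All 33 gaps lay within 0.15 of a whole multiple of that median, up to 5 times it. The 22 shorter gaps set the median, so only the longer gaps bear on the multiples. On Un_random from 2373103 to 2470309, 23 sites were spaced in the same way, 7 in both replicates, 14 in replicate 1 only and 2 in replicate 2 only. The median of its 12 gaps under 3 kb was 2391 bp, and all 22 gaps lay within 0.15 of a whole multiple, up to 4 times it. Here too the 12 shorter gaps set the median.

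Sites missing from a replicate in these arrays therefore sat at the same steps as sites that were found. Fold enrichment in replicate 2 was 2.43 to 3.96 on chromosome 6 and 2.65 to 3.82 on Un_random. Across both spans the Hoxa13 lists of all 3 stages held 0 peaks. The sequence under the sites was not read, as no mm9 genome was used, so it is not known whether the steps are copies of a repeat unit.

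**Figure D4:**
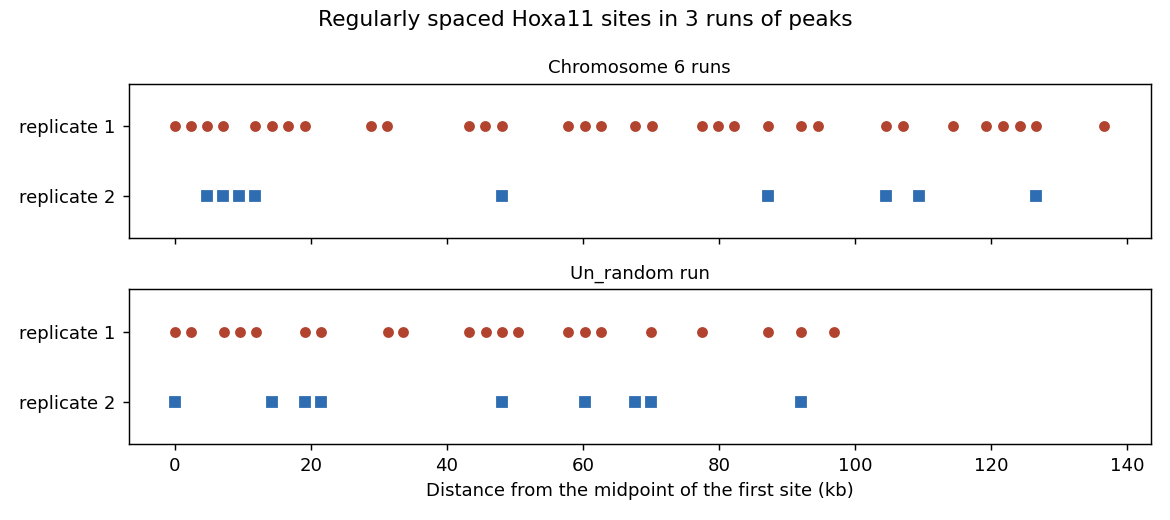
Each point is a Hoxa11 site, placed by the distance of its midpoint from that of the first site (kb, x axis), with replicate 1 in the upper row and replicate 2 in the lower row of each panel. The 34 sites of chromosome 6 and the 23 of Un_random fall on steps of about 2.4 kb (medians 2414 and 2391 bp), most of them found in replicate 1 only.

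Windows of 1 Mb gave a wider view. Hoxa11 peaks occupied 1436 windows, 735 of them in both replicates, 569 in replicate 1 alone and 132 in replicate 2 alone. A reproducible site lay in 630 windows, and 449 of these held exactly 1. The 10 richest windows held 134 reproducible sites (13.1%). Of these, 4 lay on X and 1 on 4_random, in the places already named. The autosomal ones were chromosome 12 from 55000001 (10 sites), chromosome 11 from 87000001 (8), chromosome 14 from 52000001 (8), chromosome 3 from 86000001 (8) and chromosome 6 from 114000001 (8). In the chromosome 11 window every one of the 8 peaks of replicate 1 and of the 8 of replicate 2 was met.

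The windows richest in peaks of replicate 1 only were led by the chromosome 6 array, with 25, and by Un_random from 2000001, with 20. The X window from 92000001 had 15, chromosome 1 from 165000001 had 14 and chromosome 18 from 55000001 had 13. In the chromosome 1 window replicate 1 had 19 peaks and replicate 2 had 6, and in the chromosome 18 window 17 and 5. Those richest in peaks of replicate 2 only were X from 92000001 and from 120000001, with 11 each, chromosome 8 from 19000001 and chromosome 9 from 3000001, with 9 each, and X from 121000001, with 8. On chromosome 8 the fold enrichment of these peaks was 1.74 to 2.64, against 3.10 to 5.92 in the X window from 121000001.

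The windows taken to hold the Hox clusters, from general knowledge of mm9, were described peak by peak because Hox proteins are known to bind regulatory DNA of the Hox clusters in the limb. In the 4 windows, 16 of 31 replicate 1 peaks (51.6%, 33.1 to 69.8) and 16 of 23 replicate 2 peaks (69.6%, 47.1 to 86.8) were met. These intervals include the shares of the whole lists. Reproducible peaks had a fold enrichment of 2.70 to 11.6 in replicate 2, with a median of 4.25, and the 7 peaks of replicate 2 only had 3.12 to 3.54. The 15 peaks of replicate 1 only were 199 to 363 bp wide, and the 16 reproducible ones 199 to 751 bp.

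In the HoxA window on chromosome 6, replicate 1 had 14 peaks and replicate 2 had 10, and 7 of each were met. The strongest ran from 52176113 to 52176863 in replicate 1 and from 52176071 to 52176864 in replicate 2 (5.80-fold), and met Hoxa13 at all 3 stages. Near it, sites from 52150915 (3.83-fold) and 52166695 (3.50-fold) in replicate 2 also recurred and met Hoxa13 at all stages. The reproducible site from 52180923 to 52181404 in replicate 2 (2.70-fold) met no Hoxa13 peak. Between these lay a peak of replicate 2 only, from 52172320 to 52172523 (3.12-fold), 3.59 kb from the nearest replicate 1 peak. Farther along, sites from 52551610 (3.27-fold), 52752429 (2.95-fold) and 52788265 (4.52-fold) in replicate 2 recurred as well. Peaks of replicate 1 only began at 52004040, 52103651, 52140827, 52271469, 52365857, 52728537 and 52780904, and those of replicate 2 only at 52345158 and 52592168 besides the one named.

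In the HoxD window on chromosome 2, replicate 1 had 9 peaks and replicate 2 had 5, and 4 of each were met. The reproducible sites from 74218838 to 74219319 (9.18-fold) and from 74976241 to 74976895 (11.6-fold) in replicate 2 were in the top class of the list by fold enrichment. A close couple lay between them, from 74535107 to 74535607 (6.87-fold, also in the top class) and from 74536748 to 74537203 (3.99-fold). All 4 met Hoxa13 at E11.5, 3 of them also at E12.5, and 0 at E11.0. The 5 peaks of replicate 1 only began at 74089687, 74326275, 74455426, 74490656 and 74549710, and 2 of them met Hoxa13, both at E11.5 only. The peak of replicate 2 only, from 74873191 to 74873417, had a fold enrichment of 3.19.

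The HoxC window on chromosome 15 held 6 peaks in each replicate, 3 of them met. The strongest, from 102844857 to 102845401 in replicate 1 and from 102844833 to 102845396 in replicate 2, had a fold enrichment of 11.3 and lay on Hoxa13 peaks of every stage. The others recurred from 102828438 (4.61-fold) and 102865577 (3.50-fold) in replicate 2. Peaks of replicate 1 only lay close to these, 1.09 to 2.09 kb from the nearest replicate 2 peak, whereas those of replicate 2 only lay 24.0 to 402 kb from replicate 1. In the HoxB window on chromosome 11 both peaks of each replicate were met, at 3.73-fold from 96142916 and 4.74-fold from 96180532 in replicate 2.

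The last comparison set the replicate classes against the Hoxa13 lists. The E11.0 list holds 50890 peaks, the E11.5 list 143460 and the E12.5 list 44699. A longer list is met more often, so classes are compared within a stage and not across stages. Reproducible sites met Hoxa13 at E11.5 in 79.2% of cases, peaks of replicate 1 only in 66.7% (64.5 to 68.8) and peaks of replicate 2 only in 55.9% (51.8 to 60.0). At E12.5 the shares were 64.7%, 40.3% (38.1 to 42.5) and 40.8% (36.8 to 44.9). At E11.0 they were 30.6% (27.8 to 33.5), 20.3% (18.6 to 22.2) and 30.9% (27.1 to 34.8). Replicate 1 only minus replicate 2 only was thus 10.8 points at E11.5 (Newcombe interval 6.24 to 15.3), −0.549 at E12.5 (−5.14 to 3.96) and −10.5 at E11.0 (−14.8 to −6.46). The 2 classes of single-replicate peaks therefore differed in opposite directions at E11.5 and E11.0, and the interval at E12.5 included 0. With 50% reciprocal overlap required, the difference at E11.0 was −1.46 points (−4.99 to 1.75), an interval that includes 0, and that at E11.5 was 9.53 (5.10 to 13.8).

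**Figure D5:**
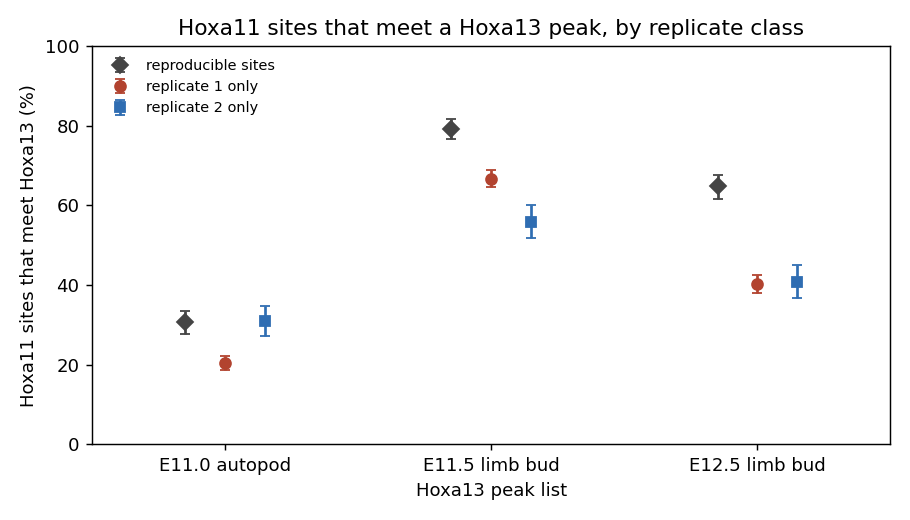
The share of Hoxa11 sites that meet a Hoxa13 peak (percent, y axis) is plotted for the 3 Hoxa13 lists (x axis), with diamonds for reproducible sites, circles for peaks of replicate 1 only and squares for peaks of replicate 2 only, and exact 95% intervals over peaks. Replicate 1 only stands above replicate 2 only at E11.5 (66.7% and 55.9%) and below it at E11.0 (20.3% and 30.9%).

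Wide and low-fold peaks weighed heavily in these differences. Among single-replicate peaks of 334 bp or more, the widest of 5 classes, the difference was 26.8 points at E11.5 (16.6 to 36.6), −13.0 at E12.5 (−22.8 to −2.55) and −26.0 at E11.0 (−35.8 to −15.9). In the other 4 classes it was 3.10 to 10.1 points at E11.5, with every interval including 0, and −9.80 to −2.08 at E11.0. There the intervals of the 2 narrowest classes lay below 0 (−17.0 to −0.240 and −18.8 to −1.52) and the other 2 included it. At E12.5 the other classes gave −3.00 to 5.72 points, all with intervals including 0. Leaving out replicate 2 peaks below 2.5-fold brought it to 4.79 points at E11.5 (0.0988 to 9.61) and −4.85 at E11.0 (−9.22 to −0.779). Peaks that met Hoxa13 at E11.0 and E12.5 but not at E11.5 made up 3 of 1897 peaks of replicate 1 only (0.158%, 0.0326 to 0.461) and 33 of 583 of replicate 2 only (5.66%, 3.93 to 7.86), with 7 of the 1023 reproducible sites (0.684%, 0.276 to 1.405). Of these 33 peaks, 9 were the adjoining peaks of the chromosome 9 group, which the interval counts as separate. Replicate 1 and Hoxa13 at E11.5 have an input library in common by its title. The part of that input in these values was not tested, as no input file was analysed.

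Peaks without Hoxa13 at any stage were similar in share between the single-replicate classes, 569 (30.0%, 27.9 to 32.1) of replicate 1 only and 185 (31.7%, 28.0 to 35.7) of replicate 2 only, and fewer among reproducible sites, 165 (16.1%, 13.9 to 18.5). Sites with Hoxa13 at all 3 stages were 277 (27.1%, 24.4 to 29.9) of the reproducible ones, 309 (16.3%, 14.7 to 18.0) of replicate 1 only and 98 (16.8%, 13.9 to 20.1) of replicate 2 only. Merged reproducible sites are wider than single peaks (median 438 bp, against 256 and 247 bp), which makes an overlap easier to reach.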

How the data were processed

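ChIP-seq peak lists of Hoxa11 (replicates 1 and 2) and Hoxa13 (3 stages) were used as deposited, 1 library per list. The mm9 build, MACS2 2.1.0, Bowtie2 2.2.2 and CASAVA 1.4 are named per the submitters' processing notes, and no role, threshold or treatment of duplicates is given in the sources used here. Lists of 3 columns hold only positions. The list of replicate 2 has 10 columns, with the score, the fold enrichment (a ratio to the background used in calling), the −log10 p-value and −log10 q-value and the summit as the authors deposited them.

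Overlaps of at least 1 bp, distances, runs chained at 10 kb and windows of 1 Mb were computed in Python 3.11.15 with pandas 2.3.3 and SciPy 1.17.1, after the code was tested on simulated intervals. Intervals are 95% exact Clopper-Pearson intervals for shares and Newcombe intervals (statsmodels 0.14.6) for differences. Dense windows hold more peaks in any of the 5 lists than the third quartile plus 3 interquartile ranges. A peak belongs to the window of its midpoint.

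Sites were named by rule: the 10 highest-scoring replicate 2 peaks met and not met, the 5 widest replicate 1 peaks met and not met, all peaks of the 4 Hox windows, the 10 runs and 10 windows richest in reproducible sites, and the 5 windows richest in peaks of each single replicate. Other named peaks were chosen after their values were seen, as stated beside them. Members, lists and rules were chosen with earlier results of these data known. Peaks were not assigned to genes and no sequence is shown, because the reference tables used here are of GRCm38 and coordinates were not converted. Alternatives were other overlap rules, peak edges, list lengths, q thresholds, chromosomes, dense windows and neighbour distances.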

Additional observations from a re-analysis of the deposited data

How the results depend on the processing

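Of 98 alternative values over 19 results, 40 lay within the 95% interval of the value reported, 56 outside it, and 2 turned the sign of a difference whose interval excluded 0. The share of peaks met, in replicate 1 and replicate 2 in that order, was 29.1% and 52.2% with 50% reciprocal overlap, 32.0% and 57.5% with midpoints within 200 bp, 38.8% and 68.5% with peaks extended by 500 bp, and 32.0% and 57.4% with all peaks set to 200 bp. It was 50.5% and 50.9% with the widest 1000 of each list, 50.3% and 51.5% with the widest 1647 of replicate 1, 29.4% and 72.7% with replicate 2 at −log10 q of at least 5, and 16.2% and 86.9% at 10. Without dense windows of the 5 lists it was 31.2% and 61.4%, and without those of the Hoxa13 lists alone 34.0% and 65.4%. For replicate 2 alone it left its interval at 25% reciprocal overlap (61.7%) and at 2.5-fold or more (67.8%), and for replicate 1 alone on chromosomes 1 to 19 (33.9%) and without the 26 long runs (33.7%). The X minus autosome difference in replicate 1 was 18.96 points with 50% reciprocal overlap, and it turned to −3.25 without dense windows and −5.27 without the long runs, which hold most of the X peaks. In replicate 2 it was −28.8 and −38.7 there.

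The widest class was met at 62.9% in replicate 1 and 66.7% in replicate 2 with midpoints within 200 bp, and at 70.5% in replicate 1 without long runs. The top class of replicate 2 with all peaks set to 200 bp was met at 81.2% by fold enrichment and 76.4% by −log10 q, and at 97.4% by −log10 q above 2.5-fold. Summits lay inside the replicate 1 peak in 94.9% of one-to-one pairs. The share of reproducible and single replicate 1 peaks with a neighbour was 26.7% and 14.9% at 5 kb, 45.5% and 32.3% at 50 kb, 13.7% and 10.2% without dense windows, 21.3% and 14.3% on chromosomes 1 to 19, and 19.8% and 13.3% without long runs. In replicate 2 the reproducible share was 23.3% at 5 kb, and both shares were 37.3% and 35.5% at 50 kb, 9.74% and 13.5% without dense windows, 17.2% and 18.8% on chromosomes 1 to 19, and 15.4% and 17.0% without long runs. Without long runs the 10 richest windows held 7.23% of reproducible sites. The Hoxa13 difference at E11.0 was −1.46 points with 50% reciprocal overlap, where its interval included 0, −5.64 without dense windows and −4.85 above 2.5-fold, and that at E11.5 was 4.79 above 2.5-fold. The bounds of 2.5-fold and of 9 peaks for long runs were chosen after seeing the data.

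No paired analysis was possible because only Hoxa11 has replicates, and leaving out a replicate leaves no comparison between them. Read depth, which is unknown here, limits every share: lists of called peaks do not show how much signal the other replicate had at a site it lacks.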

Other observations

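Mitochondrial DNA gave 1 peak in replicate 1 and 2 in replicate 2, and 1 of each was met. Unplaced sequence held 72 peaks of replicate 1, 28 of them met (38.9%, 27.6 to 51.1), and 53 of replicate 2, 30 of them met (56.6%, 42.3 to 70.2). On chromosome Y replicate 1 had 11 peaks and replicate 2 had 2, and 2 of each were met.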
